A study of Homo sapiens with 17 samples.

Results

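The genes described here are 10 members of the BCL2 family, BCL2L1, MCL1, BCL2A1, BAX, BAK1, BID, BBC3, PMAIP1, BCL2L11 and BAD. They were chosen by symbol, by a rule that names no measured value, though with earlier results of these data known. Each symbol named 1 of the 58870 entries of the deposited gene table. Of the 10 genes, 9 had enough counts to be tested, and BCL2A1 did not. RNA came from the established human cell line MDA-MB-231, derived from a triple-negative breast cancer and labelled as of the mesenchymal basal B type. The cells had received 45 nM TRAIL, a TNF family ligand that can start apoptosis through death receptors, a dose described as suboptimal and given so that responses could be read in living rather than dying cells. RNA was taken at 0, 1, 3, 6, 12 and 24 h, from 3 libraries at each time except 1 h, for which 2 libraries were analysed. All 17 libraries, those at 0 h included, carry the treatment label, and no library analysed here is labelled untreated, so that hours with TRAIL and hours in culture cannot be told apart. The labels do not say whether replicates came from separate cultures, and p-values then measure only the spread between these libraries, which may be technical. In such bulk RNA, fewer cells of a kind and less RNA per cell cannot be told apart.

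BCL2 family proteins decide whether the outer mitochondrial membrane becomes permeable, the step that releases cytochrome c and leads to caspase activation. BAX and BAK1 are the effectors that form the pores, BCL2L1 (whose main product is BCL-xL), MCL1 and BCL2A1 restrain them, and the BH3-only proteins BID, BCL2L11 (BIM), BBC3 (PUMA), PMAIP1 (NOXA) and BAD either activate the effectors or occupy the restraining members. Ligation of TRAIL receptors reaches this machinery through caspase-8, which cleaves BID. Much of the control acts on the proteins, by cleavage of BID, phosphorylation of BAD, rapid turnover of MCL1 and changes of shape of BAX and BAK1, and RNA counts do not show it. Gene-level counts also merge splice forms, among them the long and short forms of BCL2L1 and MCL1.

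Total counts ran from 13731520 to 19234924 per library. Of the markers listed for this line, VIM, CD44, MSN and AXL had at least 7900 counts and ZEB1 at least 411 counts in every library, while SPARC, also listed as high, had 4 to 17. ESR1 had at most 2 counts, PGR and KRT5 at most 1, and CDH1 at most 16, whereas ERBB2, EPCAM and GATA3, listed as low, had at least 786, 204 and 105 counts. Of the markers of blood and endothelium, PTPRC, CD3E and LYZ stayed at or below 6 counts and PECAM1 had 11 to 68. The relation of counts to transcript length differed between times. Per doubling of transcript length, the deviation of log2 CPM from the average library changed by between -0.14 and -0.063 at 3 h, between -0.064 and -0.013 at 0 h, between 0.015 and 0.098 at 6 h, and between 0.023 and 0.13 at 24 h. The share of counts from mitochondrial genes moved as well, from 6.75 ± 1.46% (SD, n = 3) in the 0 h libraries to 8.59 ± 0.521% in those of 3 h (n = 3) and 3.90 ± 0.240% in those of 24 h (n = 3). Its part in the results on the family was not tested. Where a correction for transcript length and GC content made or undid a call for a member, the corrected value is given. Whether the trend with length arose in the libraries or in the cells was not tested, and neither value is taken as the truer.

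At 0 h the 10 genes spanned a wide range of levels. Per kilobase of the median transcript of each gene, BCL2L1 stood highest at 172 CPM per kb (lowest 167, highest 176, n = 3), followed by BAX at 162 (159 to 165) and BAD at 95.4 (94.0 to 97.3). MCL1 had 81.7 (81.1 to 82.1), PMAIP1 48.4 (45.3 to 52.7), BAK1 32.0 (29.7 to 35.6) and BID 21.4 (20.5 to 22.2). BBC3 with 2.89 (2.44 to 3.33) and BCL2L11 with 2.62 (2.50 to 2.77) overlapped, and BCL2A1 came last. The order of the upper members rests on the length assumed, since the transcripts of BAX in the annotation run from 433 to 1358 bases. Per kilobase of the longest transcript the level of BAX was 73.3 CPM per kb, below MCL1 with 75.3.

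The changes over time were modest and did not run in 1 direction across the family. A gene is called here when its p-value from the edgeR quasi-likelihood test, adjusted by Benjamini-Hochberg over the 15365 genes tested, is below 0.05, and log2 fold changes come from the same fit. Between any of the 6 times, 7 of the 9 tested members differed, against 64.2% of all genes. BID (adjusted p 0.103) and BAD (0.183) were not among them. At 1 h, 0 members were called by edgeR against 0 h (0.312% of all genes, 0.260% higher and 0.0521% lower), and DESeq2 called 1. An unadjusted p below 0.05 was reached at 1 h by 1 member and by 791 of the 15365 genes. At 3 h, 3 of 9 were called (17.7% of all genes, 9.04% higher and 8.71% lower), with MCL1 and BBC3 higher and PMAIP1 lower. At 6 h, 4 of 9 were called (30.1%, 16.9% higher and 13.2% lower), with MCL1, BAK1 and BCL2L11 higher and BID lower. At 12 h, 2 of 9 were called (12.4%, 5.96% higher and 6.48% lower), BAK1 higher and BCL2L1 lower, and at 24 h, 3 of 9 (35.1%, 18.0% higher and 17.1% lower), BAK1 and BCL2L11 higher and BAX lower. With 9 genes in all, these are counts only, and the family was not tested against other genes. From 3 h on, the median log2 fold changes of the 9 members were in order -0.077, 0.12, -0.082 and 0.057, beside medians of -0.0041, -0.022, -0.0032 and -0.0018 over all genes tested. These comparisons share the 0 h libraries. Of the 19 calls made for members against 0 h or against the preceding time, 9 were made in all 17 alternative analyses of the same comparison, and the libraries or settings that undid the others are named with each gene.

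**Figure D1:**
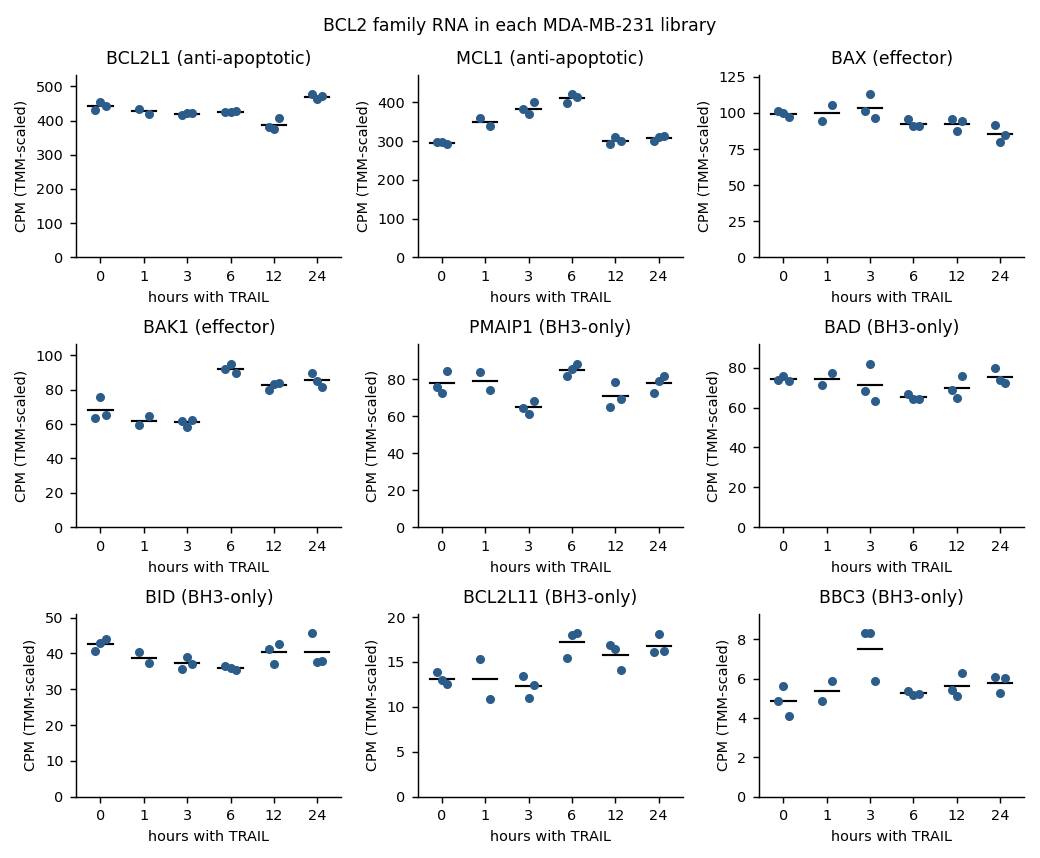
Level of each of the 9 tested members in every library, in CPM scaled by TMM, against hours with TRAIL. Each point is 1 library and each bar the mean of a time. The mean of MCL1 is 412 CPM at 6 h and 301 at 12 h, BAK1 steps up between 3 h and 6 h, and BCL2L1 lies between 377 and 477 CPM throughout.

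MCL1, a restraining member with a short-lived protein, was higher at 3 h and 6 h than at 0 h and then fell. It is on the minus strand of chromosome 1 (150574551 to 150579738, entry ENSG00000143384.13), in GRCh38 as for all loci given, with whole counts in all libraries and 4261 to 7675 counts per library. The 0 h libraries had 297, 298 and 294 CPM, the 1 h libraries 360 and 339, the 3 h libraries 383, 369 and 401, and the 6 h libraries 399, 421 and 414. The 12 h libraries had 292, 310 and 300 CPM and the 24 h libraries 301, 310 and 313. Every library from 1 h to 6 h was thus above every 0 h library, and the 12 h libraries overlapped the 0 h libraries. Against 0 h, MCL1 was higher by 0.38 in log2 at 3 h (SE 0.050, adjusted p 3.8e-05), which is 1.30-fold, and by 0.48 at 6 h (SE 0.050, adjusted p 2.2e-06), which is 1.39-fold. From 6 h to 12 h it fell by 0.45 (SE 0.050, adjusted p 5.0e-06). These 3 calls were made in all 17 alternatives, and with the length and GC correction the changes were 0.40 at 3 h and 0.36 at 6 h. From 3 h to 6 h the libraries overlapped and the difference of 0.099 was not called (adjusted p 0.117). Scaling by library size alone called it (0.17, 0.0196), and the length and GC correction turned it (-0.041, 0.343). At 1 h the log2 fold change was 0.24 (95% interval 0.12 to 0.36) with an adjusted p of 0.0963 in edgeR, while DESeq2 gave 0.23 (adjusted p 0.00142) and the length and GC correction 0.26 (2.4e-04). At 12 h and 24 h the differences from 0 h were 0.023 (95% interval -0.082 to 0.13, adjusted p 0.811) and 0.057 (-0.048 to 0.16, adjusted p 0.393), and both turned with the correction, to -0.064 (0.207) and -0.080 (0.0688).

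BCL2L1, which had the most counts of the family (5424 to 8146 per library), moved little. The gene lies on the minus strand of chromosome 20 (31664452 to 31723989, entry ENSG00000171552.13). It had 431, 453 and 444 CPM at 0 h, 435 and 418 after 1 h, 416, 421 and 422 after 3 h, and 426, 424 and 428 after 6 h. At 12 h it had 380, 377 and 407 CPM and at 24 h 477, 462 and 471. The 12 h libraries were below all other libraries of the series, and the 24 h libraries were above all others. BCL2L1 fell by 0.19 at 12 h against 0 h (SE 0.048, adjusted p 0.0145). This call was lost without replicate 2 of 0 h (-0.17, adjusted p 0.0581), without replicate 2 of 12 h (-0.17, 0.0808) and with no filter on low counts (-0.19, 0.067). From 12 h to 24 h it rose by 0.28 (SE 0.048, adjusted p 0.00159), a call made in all 17 alternatives. Against 0 h the difference at 24 h was 0.086 (95% interval -0.015 to 0.19, adjusted p 0.175), and it was called with the length and GC correction (0.11, adjusted p 0.0219) and under scaling by library size alone (0.16, 0.0177). The counts of BCL2L1 were not whole in all 17 libraries, and 43.0% of its annotated exon bases overlap ABALON on the opposite strand. ABALON itself had 15.9 to 87.7 counts per library, few beside those of BCL2L1. The library kit keeps strand, but the strand setting of the counting is not given in the sources used here, so that reads of overlapping genes on opposite strands may have been split between them.

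BCL2A1, a restraining member known as a target of NF-κB in blood cells, was barely detected. It is on the minus strand of chromosome 15 (79960889 to 79971446, entry ENSG00000140379.8). Its counts summed to 1 over the 3 libraries at 0 h, 1 over the 2 at 1 h, and 5, 4, 8 and 2 over the 3 libraries of each later time, and 8 of the 17 libraries had 0. The highest single value was 5 counts. No fold change is given, since all times lie near the limit of 3 counts that a count of 0 allows.

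The effectors BAK1 and BAX did not move alike. BAK1 is on the minus strand of chromosome 6 (33572547 to 33580293, entry ENSG00000030110.13), with 751 to 1664 counts per library, not whole in 10 of them. It had 63.5, 75.9 and 65.4 CPM at 0 h, 59.5 and 64.5 after 1 h, and 62.1, 58.3 and 62.5 after 3 h. It then had 91.8, 95.2 and 89.6 CPM after 6 h, 79.7, 83.5 and 84.2 after 12 h, and 89.6, 85.0 and 81.7 after 24 h. Each of the 9 libraries from 6 h on was above each of the 8 libraries before. From 3 h to 6 h BAK1 rose by 0.60 (SE 0.068, adjusted p 6.4e-06), or 1.51-fold. Against 0 h it was higher by 0.43 at 6 h (SE 0.066, adjusted p 1.2e-04), 0.27 at 12 h (SE 0.067, adjusted p 0.0114) and 0.32 at 24 h (SE 0.067, adjusted p 0.00121). Apart from that of 12 h, these calls were made in all 17 alternatives, and the length and GC correction gave 0.51 at 6 h and 0.41 at 24 h. That of 12 h was not made without replicate 1 of 0 h (0.22, adjusted p 0.0773), replicate 3 of 0 h (0.24, 0.0516) or replicate 2 of 12 h (0.26, 0.0511). At 3 h BAK1 differed from 0 h by -0.16 (adjusted p 0.103). It was called lower under scaling by library size alone (-0.23, 0.0276) and with the correction that takes the longest transcript (-0.18, 0.0463).

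BAX lies on the plus strand of chromosome 19 (48954815 to 48961798, entry ENSG00000087088.20), with whole counts of 1268 to 1745 per library. It had 101, 99.9 and 97.5 CPM at 0 h, 94.3 and 106 after 1 h, 101, 113 and 96.6 after 3 h, and 95.6, 91.1 and 90.9 after 6 h. At 12 h it had 95.7, 87.5 and 94.3 CPM and at 24 h 91.4, 79.8 and 84.6. The libraries at 24 h lay below those at 0 h without overlap. BAX fell by 0.22 at 24 h (SE 0.068, adjusted p 0.0149), but the direction turned with the length and GC correction (0.093, adjusted p 0.156), and with the longest transcript taken as its length the corrected value was -0.0056 (adjusted p 0.93). The call was also lost without replicate 1 of 0 h (-0.21, adjusted p 0.0547), without replicate 2 of 24 h (-0.18, 0.0885), under scaling by library size alone (-0.15, 0.0614) and with replicates 2 and 3, the most alike, averaged at 6 h and 24 h (-0.21, 0.0686). At 6 h, when its libraries also lay below those of 0 h, the BAX difference was -0.11 (95% interval -0.25 to 0.034, adjusted p 0.243), and the correction turned it to 0.11 (adjusted p 0.1). From 3 h to 6 h BAX differed by -0.16 (adjusted p 0.0582), whereas the corrected fit called it higher (0.22, 0.0013, and 0.11, 0.0304, with the longest transcript). The count of BAK1 divided by that of BAX in the same library, which needs no scaling and is read here only as a change over time, was 0.686 ± 0.068 in the 0 h libraries (SD, n = 3 here and for the times that follow) and 0.592 ± 0.0678 at 3 h. It then stood at 0.997 ± 0.0433 by 6 h, 0.893 ± 0.0603 by 12 h and 1.00 ± 0.0529 by 24 h. Its lowest value from 6 h on, 0.833, was above its highest value up to 3 h, 0.760. The ratio pairs a long with a short transcript, and its log2 change from 0 h was smaller with the length and GC correction, 0.40 in place of 0.54 at 6 h and 0.32 in place of 0.55 at 24 h.

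**Figure D2:**
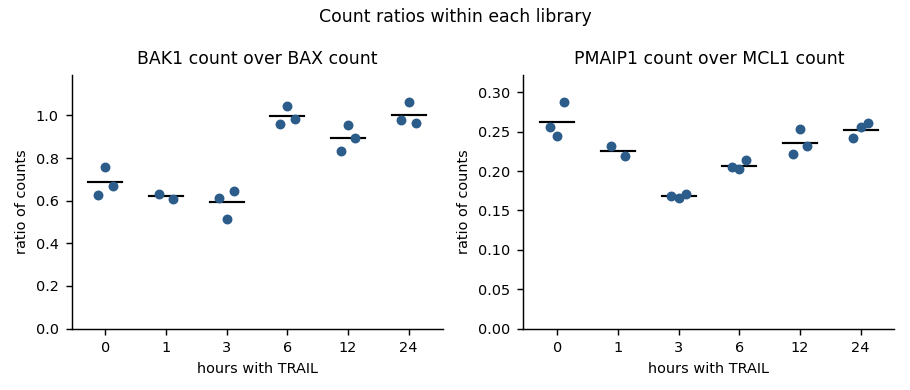
Ratio of the counts of BAK1 to BAX (left) and of PMAIP1 to MCL1 (right) within each library, against hours with TRAIL. Points are libraries and bars are means. The first ratio is 0.997 at 6 h against 0.686 at 0 h, and the second is lowest at 3 h, at 0.168.

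BCL2L11, the gene of the BH3-only activator BIM, was the member whose level over the 17 libraries resembled BAK1 most (Pearson r 0.77 on log2 CPM, a description over libraries that share their times and length trends). It is on the plus strand of chromosome 2 (111119378 to 111168447, entry ENSG00000153094.23), with 142 to 337 counts per library. BCL2L11 had 13.9, 13.0 and 12.5 CPM at 0 h, 15.3 and 10.9 after 1 h, and 13.5, 11.0 and 12.5 after 3 h. It had 15.4, 18.0 and 18.2 CPM after 6 h, 16.9, 16.4 and 14.1 after 12 h, and 16.2, 18.1 and 16.2 after 24 h. All libraries from 6 h on were above all 0 h and 3 h libraries, while 1 of the 1 h libraries reached into their range. From 3 h to 6 h it rose by 0.48 (SE 0.118, adjusted p 0.00292), in all 17 alternatives, with 0.28 after the length and GC correction. Against 0 h it was higher by 0.39 at 6 h (SE 0.115, adjusted p 0.0155) and 0.36 at 24 h (SE 0.115, adjusted p 0.0214). With the length and GC correction these were 0.22 (adjusted p 0.094) and 0.16 (0.229), and neither was called. With the longest transcript as length they were 0.26 (adjusted p 0.0465), which was called, and 0.195 (0.134), which was not. The 6 h call was also lost without replicate 3 of 0 h (0.35, adjusted p 0.0512), replicate 2 of 6 h (0.36, 0.0613) or replicate 3 of 6 h (0.35, 0.0754), and with replicates 2 and 3 averaged (0.34, 0.0843). The 24 h call was lost without replicate 2 of 0 h (0.35, adjusted p 0.0559), replicate 3 of 0 h (0.32, 0.0668) or replicate 2 of 24 h (0.30, 0.0975), and with the averaged replicates (0.34, 0.0747). Of the BCL2L11 exon bases, 10.9% overlap MIR4435-2HG on the opposite strand, which had 1558 to 2899 counts per library, many more than BCL2L11. MIR4435-2HG had means of 159 CPM at 0 h, 188 after 3 h, 141 at 6 h and 109 at 24 h, and its change at 24 h (-0.55 in log2, adjusted p 2.1e-05) was opposite in sign to that of BCL2L11. The counts of BCL2L11 were not whole in 11 libraries, and its values carry this uncertainty.

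The promoters of BAK1 and BCL2L11, which rose between the same times, and of BAX, the other effector, are shown for comparison. That of PMAIP1, which also rose from 3 h to 6 h, is not printed. BAX was called higher between those times only with the length and GC correction. They were read from the RefSeq windows on GRCh38.p14 that start 250 bases before a gene's start, and only the longest stretch of those 250 bases that is free of GENCODE exons is given. The BCL2L11 window lies inside the annotated gene, before a start downstream of its first annotated base. Sequences run 5′ to 3′ on the gene's strand. Capitals mark the GC box GGGCGG (or its complement CCGCCC) and the E-box CACGTG, searched on both strands, and no printed match overlaps another.
BAK1, chr6:33580294-33580526, minus strand: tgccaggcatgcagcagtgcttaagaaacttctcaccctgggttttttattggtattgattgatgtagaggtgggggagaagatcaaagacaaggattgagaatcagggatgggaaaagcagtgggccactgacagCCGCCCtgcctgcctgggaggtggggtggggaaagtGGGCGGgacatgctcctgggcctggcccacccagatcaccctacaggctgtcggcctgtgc
BCL2L11, chr2:111120664-111120913, plus strand: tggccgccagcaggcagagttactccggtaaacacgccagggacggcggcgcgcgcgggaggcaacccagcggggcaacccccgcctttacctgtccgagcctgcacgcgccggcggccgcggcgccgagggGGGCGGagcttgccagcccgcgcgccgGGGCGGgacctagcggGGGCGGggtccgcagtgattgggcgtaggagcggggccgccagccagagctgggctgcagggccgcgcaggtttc
BAX, chr19:48954625-48954814, plus strand: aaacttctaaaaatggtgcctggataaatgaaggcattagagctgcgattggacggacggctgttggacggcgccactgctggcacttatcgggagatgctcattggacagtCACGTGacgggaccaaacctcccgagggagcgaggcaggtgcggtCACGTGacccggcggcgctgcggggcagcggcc
The full 250 bases before the start hold 58.0% G and C in BAK1, 76.8% in BCL2L11 and 62.8% in BAX. The GC box is present in 45.0% and the E-box in 7.26% of all 35116 RefSeq windows of 300 bases, so that the former is common. BAX has 4 E-boxes in its window, of which 2 stand in the stretch shown, and BAK1 and BCL2L11 have none. Windows of BID and BBC3 also hold E-boxes, and that of PMAIP1 holds GC boxes and no E-box. The window of BAX also holds GC boxes, at -52 and 9 from its start, outside the stretch shown. The NF-κB consensus decamer, present in 11.3% of all windows, matched in 0 of the 15 windows found for 9 of the members, which says only that these letters are not in these windows. No window was matched for MCL1.

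PMAIP1 encodes NOXA, a BH3-only protein that binds MCL1 in particular. It is on the plus strand of chromosome 18 (59899948 to 59904306, entry ENSG00000141682.11), with whole counts of 788 to 1638 per library. PMAIP1 had 75.9, 72.7 and 84.6 CPM at 0 h, 83.7 and 74.4 after 1 h, 64.7, 61.2 and 68.3 after 3 h, and 81.7, 85.4 and 88.4 after 6 h. At 12 h it had 64.7, 78.7 and 69.3 CPM and at 24 h 72.8, 79.3 and 81.7. The 3 h libraries lay below every library of 0, 1, 6 and 24 h, while 1 of the 12 h libraries fell in their range. PMAIP1 fell by 0.26 at 3 h against 0 h (SE 0.079, adjusted p 0.0267), a call lost without replicate 3 of 0 h (-0.20, adjusted p 0.147), replicate 1 of 3 h (-0.26, 0.0734) or replicate 2 of 3 h (-0.22, 0.108). From 3 h to 6 h it rose by 0.40 (SE 0.079, adjusted p 5.9e-04), in all 17 alternatives. From 6 h to 12 h it fell by 0.26 (SE 0.077, adjusted p 0.0218). That call was lost without either replicate 2 of 6 h (-0.26, adjusted p 0.0634) or 3 (-0.23, 0.0933), without replicate 1 of 12 h (-0.21, 0.101) or 3 (-0.24, 0.0729), under scaling by library size alone (-0.23, 0.0668) and with the averaged replicates (-0.24, 0.0893). Divided by the MCL1 count of the same library, the PMAIP1 count was 0.263 ± 0.0226 without any hours of TRAIL (SD, n = 3), 0.226 ± 0.00926 after 1 h (n = 2) and 0.168 ± 0.00243 after 3 h (n = 3). After 6, 12 and 24 h it was 0.207 ± 0.00573, 0.235 ± 0.0165 and 0.253 ± 0.00968 (n = 3 each). The 3 h ratios, from 0.166 to 0.171, overlapped with those of no other time. With the length and GC correction the log2 change of this ratio from 0 h was -0.66 in place of -0.64 at 3 h and -0.21 in place of -0.34 at 6 h. At 12 h PMAIP1 differed from 0 h by -0.13 (adjusted p 0.29), with -0.18 (0.0446) after the correction. At 6 h PMAIP1 differed from 0 h by 0.13 (adjusted p 0.206), with 0.15 (0.0517) after the correction. It was called higher there with the replicate block added to the correction (0.15, 0.0431) and with the longest transcript (0.18, 0.0348).

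BBC3 encodes PUMA, a BH3-only protein that binds all the restraining members. It lies on the minus strand of chromosome 19 (47220822 to 47232766, entry ENSG00000105327.17) and had only 66 to 113 counts per library, so that its values are the least precise of the tested members. BBC3 had 4.85, 5.61 and 4.11 CPM at 0 h, 4.87 and 5.87 after 1 h, 8.31, 8.31 and 5.88 after 3 h, and 5.37, 5.17 and 5.23 after 6 h. At 12 h it had 5.42, 5.12 and 6.28 CPM and at 24 h 6.09, 5.27 and 6.01. At 3 h, 2 libraries stood apart from all others and the third lay close to the highest library at 0 h. BBC3 rose by 0.62 at 3 h (SE 0.151, adjusted p 0.00777), or 1.54-fold, a call lost only without replicate 3 of 0 h (0.52, adjusted p 0.0531) among the alternatives run. It fell by 0.51 from 3 h to 6 h (SE 0.149, adjusted p 0.0094). The fall went uncalled without replicate 1 of 3 h (-0.43, adjusted p 0.0525) or 2 (-0.43, 0.0533), with the length and GC correction (-0.28, 0.0668; with the longest transcript -0.25, 0.1) or with that correction and the replicate block (-0.28, 0.0827). At 24 h the difference from 0 h was 0.25 (95% interval -0.064 to 0.57, adjusted p 0.203), and the length and GC correction gave 0.50 (0.00333). At 12 h BBC3 differed by 0.21 (adjusted p 0.402), with 0.40 (0.027) after the correction.

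**Figure D3:**
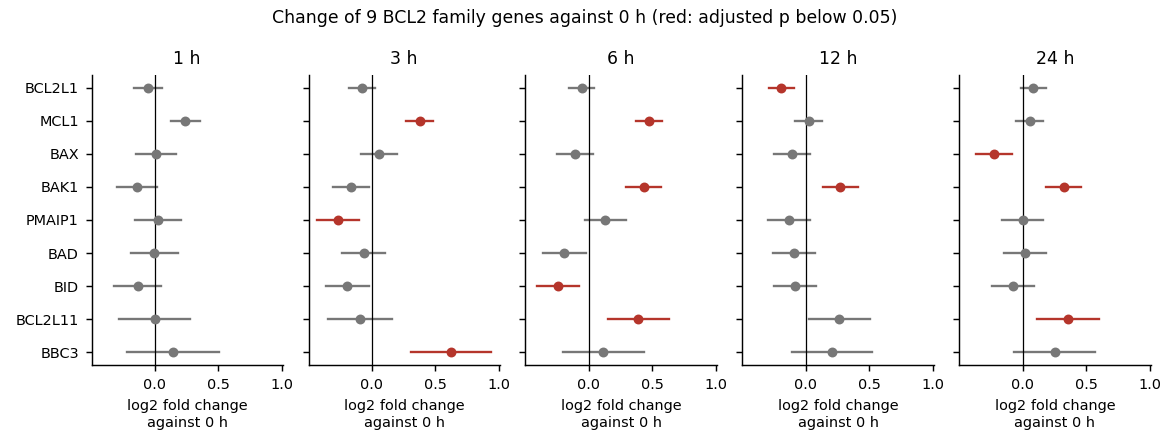
Log2 fold change against 0 h of the 9 tested members at each later time, with 95% confidence intervals from the edgeR fit of all 17 libraries. Red marks an adjusted p below 0.05. The intervals of BBC3 and BCL2L11 are the widest, and no member is red at 1 h.

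BID, the member that caspase-8 cleaves after receptor ligation, is on the minus strand of chromosome 22 (17734138 to 17774770, entry ENSG00000015475.18), with whole counts of 482 to 780. It had 40.8, 42.9 and 44.1 CPM at 0 h, 40.5 and 37.2 after 1 h, 35.7, 39.1 and 37.0 after 3 h, and 36.6, 36.0 and 35.5 after 6 h. At 12 h it had 41.1, 37.0 and 42.8 CPM and at 24 h 45.7, 37.6 and 37.8. The 3 h and 6 h libraries lay below the 0 h libraries, and the later ones overlapped them. BID fell by 0.24 at 6 h (SE 0.079, adjusted p 0.0267), or to 0.845 of its level. The call was lost without replicate 2 of 0 h (-0.24, adjusted p 0.063) or 3 (-0.22, 0.0775), replicate 2 of 6 h (-0.24, 0.0721) or 3 (-0.23, 0.0891), and with the averaged replicates (-0.25, 0.0672). At 3 h the difference was -0.19 (95% interval -0.36 to -0.025, adjusted p 0.102), and the length and GC correction gave -0.21 (0.0318).

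BAD, a BH3-only protein held inactive by survival kinases, lies on the minus strand of chromosome 11 (64269830 to 64284704, entry ENSG00000002330.13), with 883 to 1368 counts. It was called in 0 of the 9 comparisons between times by edgeR, with 1 at an unadjusted p below 0.05, that of 6 h with 0 h, for which DESeq2 gave an adjusted p of 0.08. That difference, -0.19 (adjusted p 0.0758), was called with only those times in the fit (-0.20, 0.0179) and turned with the length and GC correction (0.065, 0.422). The 0 h libraries had 74.1, 75.9 and 73.3 CPM, those of 1 h 71.3 and 77.4, those of 3 h 68.2, 82.1 and 63.3, and those of 6 h 67.0, 64.4 and 64.4. The 12 h libraries had 69.0, 65.1 and 76.0 CPM and the 24 h libraries 79.9, 73.8 and 72.6. The 6 h libraries lay below those of 0 h, the 3 h libraries spread most widely, and the other times overlapped 0 h. The transcripts of BAD are short (median 780 bases), and its differences depended on the correction for length. At 3 h BAD differed from 0 h by -0.065 (adjusted p 0.616), and the corrected fit called it lower (-0.23, 0.00525). At 24 h the difference from 0 h was 0.019 (95% interval -0.15 to 0.18, adjusted p 0.872) and with the length and GC correction 0.39 (2.1e-05). Between 3 h and 6 h it was -0.13 (adjusted p 0.216) and turned to 0.30 (3.9e-04) with the correction. Of the BAD exon bases, 23.7% overlap GPR137 on the opposite strand, which had 426 to 670 counts per library and log2 fold changes from -0.10 to 0.060 against 0 h.

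**Figure D4:**
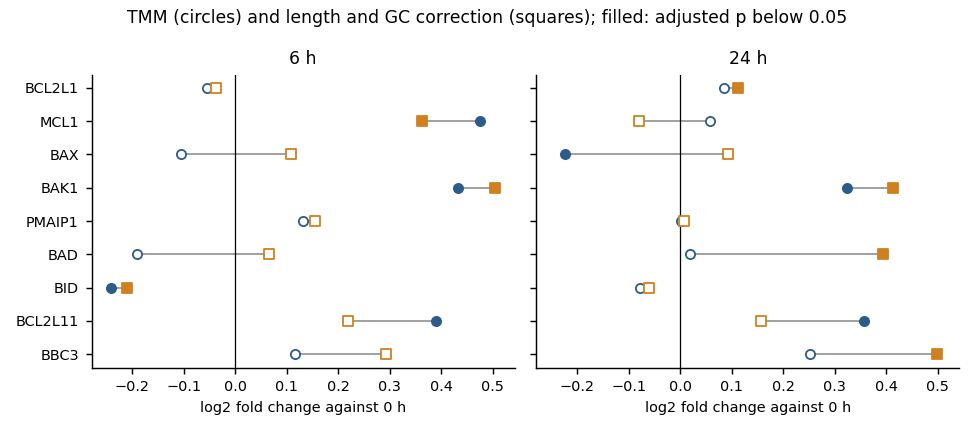
Log2 fold change against 0 h at 6 h (left) and 24 h (right) for the 9 tested members, scaled by TMM (circles) and with the correction for transcript length and GC content (squares). Filled symbols mark an adjusted p below 0.05. BAK1 and MCL1 at 6 h are filled in both, BAX at 24 h crosses 0, and BAD and BBC3 at 24 h are filled only with the correction.

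Between consecutive times, the step from 3 h to 6 h held the most called members, and also the largest share of all genes called. From 1 h to 3 h, 0 of 9 were called by edgeR (5.73% of all genes, 3.17% higher and 2.56% lower) and 0 by DESeq2. An unadjusted p below 0.05 was reached over this step by 3 members and by 3067 of all 15365 genes. From 3 h to 6 h, 4 of 9 were called (43.2% of all genes, 22.9% higher and 20.3% lower), with BAK1, BCL2L11 and PMAIP1 higher and BBC3 lower. From 6 h to 12 h, 2 of 9 were called (20.6%, 8.70% higher and 11.9% lower), MCL1 and PMAIP1 both lower, and from 12 h to 24 h, 1 of 9 (12.0%, 6.42% higher and 5.60% lower), BCL2L1, which rose. Over the step from 6 h to 12 h, the BAK1 difference of -0.16 (adjusted p 0.0906) was called with the length and GC correction (-0.16, 0.0465), as was that of BCL2L1 (-0.115, 0.0229, and -0.13, 0.0541, without it). The BCL2L1 difference was also called by DESeq2 (-0.13, adjusted p 0.0116) and by edgeR without replicate 3 of 12 h (-0.17, 0.0362). The correction also called MCL1 (0.14, adjusted p 0.013), BBC3 (0.43, 0.0367) and PMAIP1 (-0.27, 0.0115) from 1 h to 3 h, and PMAIP1 (0.18, 0.0345) and BAD (0.24, 0.0059) from 12 h to 24 h.

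Of 16 further genes named for the BCL2 family or its partners, 12 were tested. BCL2L10, HRK, BCL2L14 and BCL2L15 had at most 10 counts in any library. Against 0 h, 0 of these 12 were called at 1 h by edgeR or by DESeq2. At that time 0 had an unadjusted p below 0.05, beside 791 of all 15365 genes. From 3 h on, when 17.7%, 30.1%, 12.4% and 35.1% of all genes were called, the called genes of the 12 numbered 1, 4, 2 and 4, of which 0, 3, 1 and 3 were higher. The median log2 fold changes of the 12 were, in the same order, -0.036, 0.0024, 0.010 and 0.099. BNIP3, which encodes a mitochondrial protein of mitophagy, was lower at 3 h (-0.32, adjusted p 3.4e-04), 6 h (-0.59, 2.2e-07) and 12 h (-0.29, 0.00122), in all 17 alternatives each. BCL2 itself, a restraining member, was scarce in this line, with 86 to 174 counts per library and 7.24 ± 0.534 CPM at 0 h (SD, n = 3). It was higher at 6 h (9.66 ± 1.17 CPM, n = 3, log2 fold change 0.41, adjusted p 0.0144), a call made in 10 of 17 alternatives and lost with the length and GC correction (0.24, adjusted p 0.0899). BCL2L2, which encodes the restraining member BCL-W, was higher by 0.25 at 6 h (adjusted p 0.0124), and the call was lost without replicate 2 of 6 h (0.23, adjusted p 0.0567) and with the averaged replicates (0.22, 0.0683). BOK, an effector-like member, was lower by 0.27 at 24 h (adjusted p 0.00507), but the length and GC correction gave -0.098 (adjusted p 0.219).

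Of 20 genes that act with or on BCL2 proteins, all were tested. Against 0 h, 0 of 20 were called at 1 h by edgeR or DESeq2. At that time 1 had an unadjusted p below 0.05, beside 791 of all 15365 genes. At the 4 later times 5, 13, 7 and 14 were called, of which 2, 9, 4 and 9 were higher, beside the same shares of all genes. The medians of the 20 were -0.043, 0.14, 0.095 and 0.14 from 3 h on. APAF1, the scaffold of the apoptosome, was higher by 0.62 at 6 h (adjusted p 0.00172) and 0.63 at 24 h (0.0012), after a lower level at 3 h (-0.48, 0.0247, a call made in 13 of 17 alternatives). CYCS, the gene of cytochrome c, was lower by 0.36 at 24 h (adjusted p 5.1e-04). Among transcription factors known to act on BH3-only genes, FOXO3 was higher by 0.48 at 6 h (adjusted p 2.0e-04). DDIT3, the gene of CHOP, was lower by 0.49 at 6 h (0.00294) and 0.67 at 24 h (2.2e-04), and TP73 was lower by 0.66 at 3 h (0.00313) to 0.85 at 12 h (5.1e-04). The calls of APAF1 at 6 h and 24 h and those of CYCS, FOXO3, DDIT3 and TP73 named here were made in all 17 alternatives, but sizes moved: FOXO3 at 6 h was 0.29 with the length and GC correction, and APAF1 at 24 h was 0.40 with the longest transcript. CDKN1A, which encodes an inhibitor of cyclin-dependent kinases, was higher by 0.43 at 3 h (adjusted p 3.2e-05) and 0.96 at 6 h (1.2e-09), from 112 ± 8.79 CPM at 0 h to 218 ± 2.99 at 6 h (SD, n = 3 each). Both calls of CDKN1A were also made in all 17.

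For each tested member, the 3 most similar genes outside the family were sought by Pearson correlation of log2 CPM over the 17 libraries, among 11360 genes whose average log2 CPM reached 2. All points share the 6 times, the depth and the length trends, and no p is given. MCL1 was most like SPRY2 (0.95) and SHISA2 (0.95), and BAK1 was most like PLK1 (0.97), MMP14 (0.96) and MPZL1 (0.95). BAX was most like NHP2 (0.97), RPS3 (0.96) and FDX2 (0.96), and BCL2L11 most like ZNF664 (0.92), SPTY2D1 (0.92) and TPR (0.91). PMAIP1 was nearest to MATR3 (0.94), CAV1 (0.93) and SPCS3 (0.93), and BAD to CORO1B (0.94), CCND3 (0.90) and ACADS (0.87). The nearest genes were TRAPPC9 (0.91), RNASEH2A (0.86) and NUCB1 (0.83) for BCL2L1, GHDC (0.87), B4GAT1 (0.85) and P3H4 (0.84) for BID, and C11orf68 (0.87), ARFRP1 (0.85) and PIM3 (0.85) for BBC3. Within the family, the lowest correlations were those of BAX with BCL2L11 (-0.83), BBC3 with PMAIP1 (-0.75) and MCL1 with BID (-0.74).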

How the data were processed

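RNA-seq of MDA-MB-231 cells was read from the gene table deposited by the authors, which holds expected counts (estimated counts per gene, 30.6% of the values above 0 not whole) with Ensembl identifiers. Reads came from a stranded, paired-end mRNA kit, per the labels' protocols. Cutadapt 1.18, STAR 2.7.0f and the build hg38 are named in the submitters' processing notes. The annotation, the counting program's version and its strand setting are not given in the sources used here. Loci, lengths and overlaps come from GENCODE 29 on GRCh38, whose versioned identifiers matched 47456 of the 58870 entries (58597 without the version).

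Expected counts were rounded, filtered with filterByExpr (15365 genes kept) and scaled by TMM. They were fitted in edgeR 4.0.16 (R 4.3.3) with 1 mean for each time over all 17 libraries, and quasi-likelihood p-values were adjusted by Benjamini-Hochberg over all genes tested. CPM is relative to the TMM-scaled total. Depth limits precision most for BBC3 and BCL2L11, and the common biological coefficient of variation was 7.06%. Alternatives were RLE or library-size scaling, no filter, unrounded counts, a replicate block, DESeq2 1.42.0, each pair of times alone, each library left out, averaged replicates 2 and 3 at 6 h and 24 h, and a correction of each library for transcript length and GC content (splines in mgcv 1.9.3). Replicates 2 and 3 of 6 h and of 24 h were closer than other pairs (chi-square per gene 1.52 and 1.69, others 4.09 to 16.1) but differed beyond counting noise, and were kept apart.

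All members were described in every comparison. Genes of the other lists could be named when called against 0 h, and the 3 most similar genes were sought for each tested member. Some genes these rules cover are not reported here. The members and lists were chosen with earlier results of these data known. The fit was tested on simulated data.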

Additional observations from a re-analysis of the deposited data

How the results depend on the processing

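Of 19 calls for the family, 9 were made in every alternative run: MCL1 at 3 h and 6 h and from 6 h to 12 h, BAK1 at 6 h and 24 h and from 3 h to 6 h, BCL2L11 and PMAIP1 from 3 h to 6 h, and BCL2L1 from 12 h to 24 h. Of 50 calls for the other lists against 0 h, 26 were. A further 40 pairs of member and comparison were called in no setting, and 25 of these changed sign in at least 1.

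The length and GC correction moved the most. With it, 1 member was called at 1 h, 5 at 3 h, 4 at 12 h, 3 from 1 h to 3 h, 4 from 6 h to 12 h and 3 from 12 h to 24 h, and the same numbers with the replicate block added. Calls over all genes rose under it in the same comparisons, from 0.312% to 0.462% at 1 h, 17.7% to 25.7% at 3 h, 12.4% to 16.1% at 12 h, 5.73% to 12.2% from 1 h to 3 h, 20.6% to 27.1% from 6 h to 12 h and 12.0% to 17.8% from 12 h to 24 h. They fell from 30.1% to 29% at 6 h, 35.1% to 33.9% at 24 h and 43.2% to 39.3% from 3 h to 6 h. In those comparisons the correction without the block called 3, 4 and 5 members, in place of 4, 3 and 4. Taking the longest transcript as length was an alternative chosen after seeing the data. It gave 1 called member at 1 h (77 of 15365 genes in all), 6 at 3 h (4001) and 3 from 1 h to 3 h (1884). From 6 h to 12 h it gave 4 (4222 in all), and from 12 h to 24 h it gave 3 (2679 in all). The correction turned the direction of BAD at 6 h (0.0654, 0.0654 with the block, 0.050 with the longest transcript), of BAX at 24 h (0.0932, 0.0941 with the block) and, from 3 h to 6 h, of MCL1 (-0.0409, -0.0409 with the block), BAX (0.22, 0.22 with the block, 0.11 with the longest transcript) and BAD (0.297, 0.297 with the block, 0.253 with the longest transcript). MDM2 at 24 h, 0.19 in the fit reported, was -0.0828 with the longest transcript. The cause was not tested.

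Library-size scaling gave 6 members at 3 h (3066 of 15365 genes in all) and 1 from 6 h to 12 h (2972 in all). Averaging replicates 2 and 3, which leaves fewer samples, gave 2 at 6 h (2532 of 15292 genes in all), 1 at 24 h (3464) and 1 from 6 h to 12 h (1670). Without the filter 1 was called at 12 h (2276 of 29899 genes in all) and 1 from 1 h to 3 h (1219). DESeq2 called 1 at 1 h (61 of 15365 in all) and 3 from 6 h to 12 h (2854 of 15365 in all). With single libraries left out, member counts ranged from 1 to 3 at 3 h (1 without the 0 h replicate 3), 2 to 4 at 6 h, 0 to 2 at 12 h, 1 to 3 at 24 h, 0 to 2 from 1 h to 3 h and 1 to 2 from 6 h to 12 h. BAD ranged from -0.178 to 0.0171 at 3 h and from -0.0241 to 0.0459 at 24 h.

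Over all genes, the 48 calls at 1 h became 195 without the filter and 77 with the longest transcript. Averaged replicates gave 2532 in place of 4627 at 6 h, 3464 in place of 5388 at 24 h, 1670 in place of 3168 from 6 h to 12 h and 452 in place of 1847 from 12 h to 24 h. From 1 h to 3 h, 880 calls became 1873 with the length and GC correction, 2121 with the block added, 1884 with the longest transcript and 312 with only those times. From 12 h to 24 h the correction with the block gave 2956. With single libraries left out the ranges were 27 to 42 at 1 h, 1412 to 2903 at 3 h, 2663 to 4906 at 6 h, 724 to 1569 at 12 h, 3444 to 5798 at 24 h, 271 to 963 from 1 h to 3 h, 1803 to 3217 from 6 h to 12 h and 583 to 2789 from 12 h to 24 h.

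Deviations of same-numbered libraries correlated from -0.438 to 0.51 over 40 pairs (median 0.0167). Those of differently numbered libraries correlated from -0.395 to 0.438 over 80 pairs (median -0.037). The deviations come from few libraries per time and also carry the length trends, so they cannot settle whether the replicate numbers pair the samples. The replicate block gave 1 called member from 1 h to 3 h in place of 0 (1048 of 15365 genes in all, in place of 880). It left the counts of called members of the other comparisons as reported. Depth limits BBC3, with 66 to 113 counts per library, and BCL2A1, with at most 5.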
